A study of Mus musculus with 9 samples.

Results

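The 44 genes described here encode parts of the machinery that docks, primes, fuses and retrieves synaptic vesicles in the presynaptic terminal. They are a list of names, put together by function with no expression threshold but with earlier results of these data known, and were sorted by role into vesicle proteins, SNARE proteins and their regulators, calcium sensors, priming factors, active zone scaffolds, Rab3 proteins and endocytosis proteins. All 44 were found by symbol among the 41128 genes of the deposited count table, and all 44 were among the 15271 genes abundant enough to be tested. RNA came from the dorsal telencephalon, the part of the forebrain that forms cortex and hippocampus, of newborn (P0) mice of strain B6:129SF2/J. The 9 libraries comprised 3 labelled wild type (WT), 3 labelled TCF4 heterozygote (Het) and 3 labelled TCF4 knockout (KO). Age, strain and tissue were the same for all groups. The sources used here give neither the allele, nor which part of Tcf4 was deleted and in which cells, nor whether pups were pooled or littermates, and the p-values below measure only how far these particular libraries differ among themselves.

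Neurotransmitter is stored in vesicles that are held near the membrane by active zone scaffolds, made ready for fusion by priming factors and released when a calcium sensor triggers zippering of the SNARE proteins on vesicle and plasma membrane. The vesicle membrane is then recovered by endocytosis. Around birth the rodent cortex is still building its synapses, and most of these genes are known to increase over the following weeks. Tcf4 encodes a basic helix-loop-helix transcription factor, a class of protein that binds the E-box, a short sequence of the form CANNTG.

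Total counts ran from 22291940 to 29445788 per library. Tcf4 was at 712, 728 and 584 CPM (counts scaled to the size of the library) in the WT-labelled libraries, 822, 652 and 719 in the Het-labelled and 638, 633 and 611 in the KO-labelled libraries, and its log2 fold change was -0.10 in KO versus WT (adjusted p = 0.36), 0.12 in Het versus WT (adjusted p = 0.33) and -0.22 in KO versus Het (adjusted p = 0.13, each SE 0.09). Every KO library was below every Het library, while WT overlapped both, and no comparison of the targeted gene's total count passed the test, so every direction below rests on the labels. A gene total would not reveal that an internal stretch was missing. WT libraries stood apart from the other 6 on the first principal component and carried 0.253% to 0.313% of counts in processed pseudogenes, against 0.0804% to 0.100% in the other 6, and 1.01% to 1.14% in mitochondrial genes, against 0.716% to 0.840%. This difference and the labelled genotype cannot be told apart in comparisons with WT, and the WT libraries also enter the shared estimate of the spread behind KO versus Het. A fit of the Het and KO libraries alone called 10 members lower and 3 higher in KO. The share of all genes called in that fit was not counted, so these counts are not shown to be particular to the members. KO replicate 3 carried 2730 Xist counts and 2 Ddx3y counts, and the other 8 libraries at most 3 Xist counts. WT replicate 2 carried 1926 Fos counts, against 19 to 95 in the others. The calls of the X-linked members Syn1 and Syp held without KO replicate 3, and the member calls lost without WT replicate 2 were those of Bsn, Erc1 and Ppfia2 given below. All 17 cortical marker genes were detected in every library. Of 12 genes listed for more caudal brain, only 2 were abundant enough to be tested, Lhx9 and Slc6a4, and these summed to 4.19 to 11.0 CPM per library. Of those 12, Hoxa5, Hoxb5, Hoxb6 and Hoxc6 had no count in any library, whereas Lhx9 (26 to 283 counts), Slc6a4 (7 to 68), Pax2 (2 to 6) and Barhl1 (1 to 6) were counted in all 9.

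Promoters of the members were read from RefSeq's table (build GRCm38.p6) as the 250 bases upstream of each annotated start, which covered 34 of the 44 genes with 43 promoters. Sequences of 3 members that fell in both Het and KO and of 2 that rose in both are given, chosen after their values were seen, so that the E-boxes upstream of both kinds can be compared. Each runs 5′ to 3′ on the gene's strand and ends at the base before the start, and capitals mark each CANNTG.
Unc13c: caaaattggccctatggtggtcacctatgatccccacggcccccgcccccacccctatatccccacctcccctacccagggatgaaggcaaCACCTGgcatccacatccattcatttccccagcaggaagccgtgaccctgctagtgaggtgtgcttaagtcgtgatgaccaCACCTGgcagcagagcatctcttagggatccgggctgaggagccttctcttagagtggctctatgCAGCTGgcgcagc
Stx1a: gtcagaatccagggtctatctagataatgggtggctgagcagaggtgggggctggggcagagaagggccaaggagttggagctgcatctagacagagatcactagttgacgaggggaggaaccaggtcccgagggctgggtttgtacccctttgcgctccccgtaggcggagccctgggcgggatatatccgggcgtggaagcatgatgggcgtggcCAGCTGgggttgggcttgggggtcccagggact
Cplx1: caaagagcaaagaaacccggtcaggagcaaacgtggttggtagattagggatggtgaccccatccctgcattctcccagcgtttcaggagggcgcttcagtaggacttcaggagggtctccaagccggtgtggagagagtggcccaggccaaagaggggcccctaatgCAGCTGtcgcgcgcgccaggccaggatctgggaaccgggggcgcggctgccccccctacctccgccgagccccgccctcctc
Rab3c: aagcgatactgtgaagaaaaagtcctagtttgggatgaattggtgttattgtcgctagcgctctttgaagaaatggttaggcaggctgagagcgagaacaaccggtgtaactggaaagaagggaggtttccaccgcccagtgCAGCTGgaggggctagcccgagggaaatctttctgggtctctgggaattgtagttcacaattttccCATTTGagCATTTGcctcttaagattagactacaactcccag
Unc13b: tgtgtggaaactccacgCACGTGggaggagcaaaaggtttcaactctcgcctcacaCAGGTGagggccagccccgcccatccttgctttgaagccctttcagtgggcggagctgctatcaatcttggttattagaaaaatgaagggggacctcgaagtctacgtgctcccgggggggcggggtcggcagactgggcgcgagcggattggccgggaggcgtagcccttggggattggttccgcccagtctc
The windows lie at chr9:73969038-73969287 (minus strand) for Unc13c, chr5:135023232-135023481 (plus) for Stx1a, chr5:108550028-108550277 (minus) for Cplx1, chr13:110280207-110280456 (minus) for Rab3c and chr4:43058703-43058952 (plus) for Unc13b. The Unc13c window held 3 E-boxes, CACCTG at 159 and 78 bases and CAGCTG at 13 bases before the start, and Stx1a and Cplx1 held a single CAGCTG each. Rab3c, which rose, also held a CAGCTG beside a pair of CATTTG, and Unc13b held CACGTG and CAGGTG, so E-boxes stood upstream of genes that moved in either direction.

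Over all 43 member promoters, CANNTG was found in 31 (72.1%), against 66.2% of the 32851 promoters of the table. CACCTG, searched on both strands and itself a form of CANNTG, was found in 12 (27.9%, against 17.2% of all), and the palindrome CAGCTG, another form, in 11 (25.6%, against 13.0%). The letters CAGCACC and GGACAG, both taken from the element of the neuronal repressor REST and searched on either strand, were found in 3 (6.98%, against 5.73%) and 9 (20.9%, against 18.7%). A match describes the letters of these windows and is not evidence of binding.

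Most of the vesicle release genes were lower in the Het- and KO-labelled libraries than in the WT-labelled ones. In KO versus WT, 28 of 44 fell (63.6%), 4 rose (9.09%) and 12 did not pass the test, where 26.3% of all genes tested fell and 26.5% rose. In Het versus WT, 30 fell (68.2%), 3 rose (6.82%) and 11 did not pass, against 23.4% of all genes falling and 22.5% rising. In KO versus Het, 9 fell (20.5%) and 3 rose (6.82%), against 8.44% and 8.30% of all genes. The reference was all genes tested, and shares among genes of matching abundance were not counted. The median log2 fold change of the members was -0.39 for KO versus WT, -0.34 for Het versus WT and -0.01 for KO versus Het, beside 0.01, 0.01 and 0.00 over all genes. Calls are from edgeR's quasi-likelihood test at an adjusted p under 0.05, and each called member had groups that did not overlap. The share of all called genes with separate groups was not counted, so this is not shown to be particular to the members. KO versus WT and Het versus WT share the WT libraries. Less RNA per cell and fewer cells of a kind cannot be told apart in bulk tissue.

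**Figure D1:**
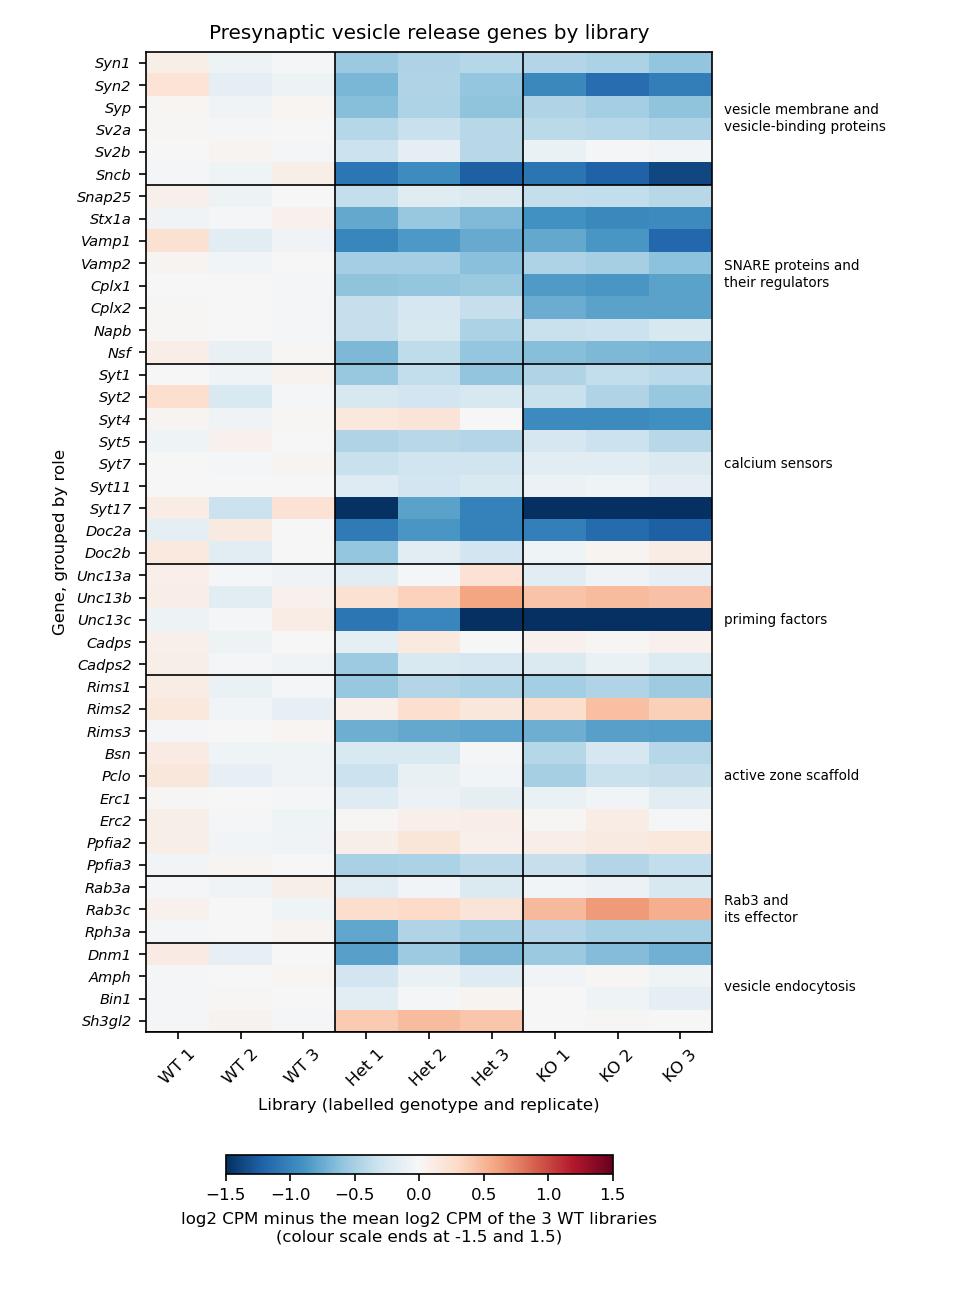
Each row is a vesicle release gene, grouped by role, and each column a library; colour gives log2 CPM minus the mean of the 3 WT libraries, on a scale that ends at -1.5 and 1.5. Blue fills most rows of the vesicle protein and SNARE groups in the Het and KO columns, while Rab3c and Unc13b are red and Syt4 is blue in the KO columns only.

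By role, SNARE proteins and their regulators fell in 8 of 8 cases in both comparisons with WT, and vesicle proteins in 5 of 6 in KO and 6 of 6 in Het. Of the synaptotagmin and Doc2 genes grouped as calcium sensors, 7 of 9 fell in KO and 7 of 9 in Het. Priming factors (1 of 5 lower in KO, 2 of 5 in Het), Rab3 proteins with rabphilin (1 of 3 and 1 of 3) and endocytosis proteins (1 of 4 and 2 of 4) had shares near those of all genes (26.3% lower in KO and 23.4% in Het) or rested on very few members. The active zone scaffold had 5 of 9 and 4 of 9. The roles were not tested against each other.

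**Figure D2:**
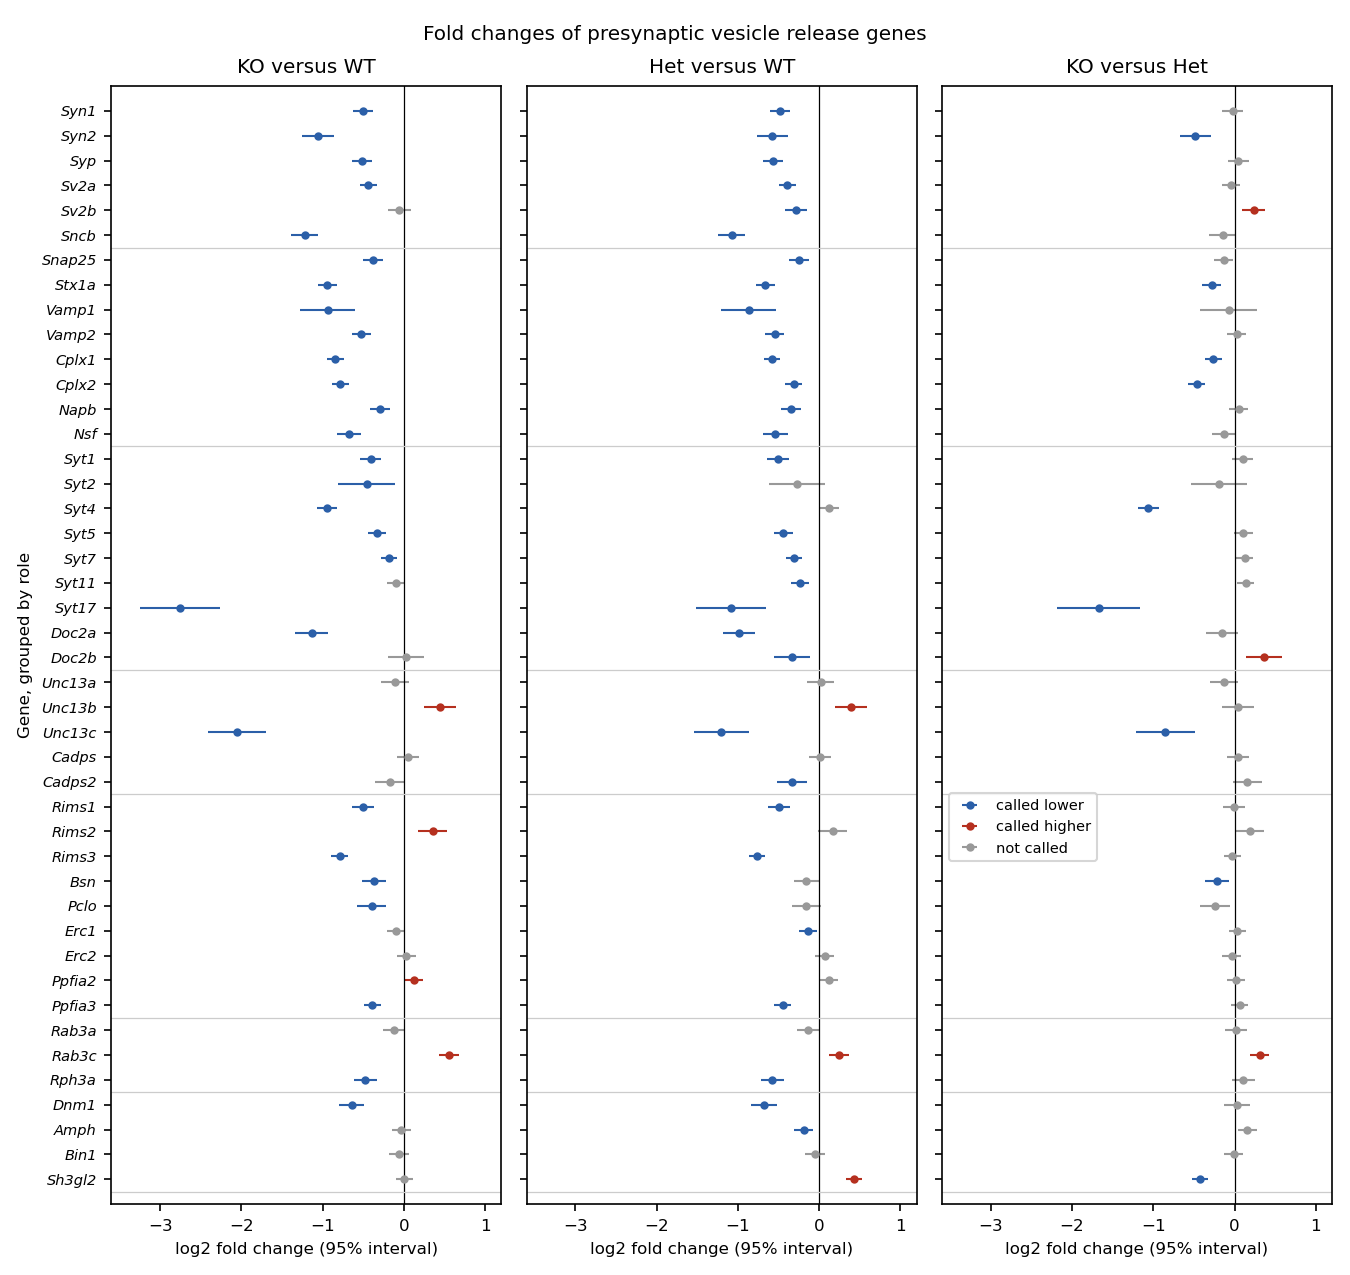
Points are log2 fold changes from edgeR with 95% intervals for the 44 genes in KO versus WT, Het versus WT and KO versus Het; blue and red mark genes called lower and higher. In the left and middle panels 28 and 30 genes are called lower, and in the right panel 9.

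Among the vesicle proteins, Sncb, which encodes beta-synuclein, was at 195, 189 and 209 CPM in WT, 93.4, 103 and 84.7 in Het and 92.4, 85.0 and 76.9 in KO. All 6 mutant-labelled libraries lay far below the WT libraries. Sncb fell with a log2 fold change of -1.22 in KO (SE 0.08, adjusted p = 1.5e-08) and -1.08 in Het (SE 0.08, adjusted p = 9.1e-08), while KO versus Het was -0.14 (95% interval -0.31 to 0.02, adjusted p = 0.23). Syn2 encodes synapsin II, which tethers vesicles in the reserve pool, and stood at 163, 129 and 134 CPM in WT, 88.2, 104 and 94.9 in Het and 72.4, 63.9 and 69.0 in KO. The 3 genotypes formed separate ranges, with Het between WT and KO. Syn2 fell by 1.06 on the log2 scale in KO (SE 0.09, adjusted p = 7.9e-07), by 0.58 in Het (SE 0.09, adjusted p = 0.0002) and by 0.48 in KO versus Het (SE 0.09, adjusted p = 0.0027). Its paralog Syn1 was at 276, 246 and 256 CPM in WT, 176, 188 and 193 in Het and 190, 186 and 172 in KO. For Syn1 the Het and KO ranges overlapped, and the falls were 0.48 in Het and 0.50 in KO (SE 0.06 for both).

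Synaptophysin (Syp), a major membrane protein of the vesicle, was at 309, 293 and 309 CPM in WT, 196, 220 and 199 in Het and 223, 213 and 200 in KO, and fell by 0.57 in Het and 0.52 in KO (SE 0.06 for both). Sv2a, a vesicle glycoprotein and the target of the antiseizure drug levetiracetam, was at 403, 390 and 400 CPM in WT, 294, 316 and 299 in Het and 300, 296 and 285 in KO, and fell by 0.39 and 0.44 (SE 0.05 for both). For both genes Het and KO sat at one lower level. Sv2b, a relative of Sv2a, was at 82.8, 85.4 and 81.1 CPM in WT, 66.3, 75.4 and 62.3 in Het and 77.3, 82.0 and 80.8 in KO, so that Het alone was low. Sv2b fell in Het by 0.29 (SE 0.06, adjusted p = 0.0016), with -0.05 for KO versus WT (95% interval -0.19 to 0.08). KO versus Het was 0.23 (SE 0.06, adjusted p = 0.019), a call lost when any of Het replicates 1 and 3 and KO replicates 2 and 3 was left out (0.17 to 0.22, adjusted p = 0.057 to 0.084).

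Fusion itself is driven by the SNARE proteins. Stx1a, the plasma membrane syntaxin, was at 156, 160 and 169 CPM in WT, 95.3, 109 and 102 in Het and 86.1, 83.0 and 83.2 in KO. The 3 groups did not overlap, and Stx1a fell by 0.94 in KO (SE 0.05, adjusted p = 5e-10), by 0.66 in Het (SE 0.05, adjusted p = 6.2e-08) and by 0.28 in KO versus Het (SE 0.05, adjusted p = 0.0019). Its membrane partner Snap25 was at 199, 179 and 190 CPM in WT, 148, 167 and 163 in Het and 147, 147 and 142 in KO, and fell by 0.38 in KO (adjusted p = 3.1e-05) and 0.25 in Het (adjusted p = 0.002). Vamp2, the vesicle SNARE of forebrain synapses, was at 591, 560 and 577 CPM in WT, 403, 405 and 374 in Het and 417, 408 and 377 in KO. Het and KO overlapped for Vamp2, with falls of 0.55 in Het and 0.52 in KO (SE 0.06 for both) and 0.03 for KO versus Het (95% interval -0.09 to 0.14). The much rarer Vamp1 was at 7.36, 5.57 and 6.07 CPM in WT, 3.20, 3.45 and 3.73 in Het and 3.70, 3.43 and 2.79 in KO, and fell by 0.87 in Het and 0.94 in KO (SE 0.16 for both).

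Complexins clamp and then promote SNARE zippering, and both members of the family here fell in every comparison. Cplx1 was at 239, 238 and 235 CPM in WT, 156, 159 and 161 in Het and 132, 129 and 136 in KO, and fell by 0.84 from WT to KO (SE 0.05, adjusted p = 4.2e-10), by 0.58 from WT to Het (SE 0.05, adjusted p = 6.3e-08) and by 0.26 from Het to KO (SE 0.05, adjusted p = 0.0011). Cplx2 was at 776, 768 and 755 CPM in WT, 601, 644 and 605 in Het and 458, 440 and 440 in KO, and fell by 0.78 (adjusted p = 1.6e-09), by 0.31 (adjusted p = 7.4e-05) and by 0.47 over the same steps (adjusted p = 4.8e-06, each SE 0.05). Libraries of both genes fell into 3 separate ranges in the order WT, Het, KO. Nsf, the ATPase that takes spent SNARE complexes apart, was at 203, 175 and 191 CPM in WT, 119, 146 and 126 in Het and 121, 119 and 117 in KO, and fell by 0.54 in Het and 0.67 in KO (SE 0.07 for both). Napb, an adaptor of that ATPase, was at 137, 135 and 133 CPM in WT, 106, 114 and 97.3 in Het and 107, 108 and 115 in KO, and fell by 0.35 and 0.30 (SE 0.06 for both).

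The largest KO fall of the set was in the group of synaptotagmins and Doc2 proteins labelled calcium sensors here, whether or not each binds calcium. Syt17 (ENSMUSG00000058420, chr7:118380717-118448222, minus strand, mm10), a synaptotagmin-related protein, was at 6.19, 4.59 and 6.67 CPM in WT, 2.05, 3.28 and 2.84 in Het and 1.08, 0.685 and 0.797 in KO. The groups were separate, and Syt17 was 6.76-fold lower in KO than in WT, a log2 fold change of -2.76 (SE 0.23, adjusted p = 5.2e-08). Het versus WT was -1.09 (SE 0.20, adjusted p = 0.00037) and KO versus Het -1.67 (SE 0.24, adjusted p = 0.00014). The lowest count of any member in any library was 18. Syt4, a synaptotagmin of dense-core vesicles that lacks the usual calcium binding of its first C2 domain, behaved otherwise. It was at 328, 307 and 321 CPM in WT, 354, 366 and 316 in Het and 165, 165 and 168 in KO, so that KO alone was low. Syt4 fell by 0.94 in KO versus WT (SE 0.06, adjusted p = 1.2e-09) and by 1.06 in KO versus Het (SE 0.06, adjusted p = 3.4e-09). Het versus WT was 0.12 (95% interval -0.01 to 0.24, adjusted p = 0.11), and passed the test without Het replicate 3 (0.18, adjusted p = 0.010), with scaling to pan-neuronal genes (0.16, adjusted p = 0.040) and with upper-quartile scaling (0.15, adjusted p = 0.039).

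Syt1, the main fast sensor of forebrain synapses, was at 378, 364 and 390 CPM in WT, 253, 292 and 251 in Het and 275, 292 and 286 in KO, and fell by 0.51 in Het and 0.41 in KO (SE 0.06 for both). Syt5 was at 195, 214 and 206 CPM in WT, 149, 154 and 151 in Het and 172, 164 and 153 in KO, and fell by 0.44 and 0.33 (SE 0.05 for both). Syt7, the slow, high-affinity sensor, was at 240, 238 and 248 CPM in WT, 192, 197 and 198 in Het and 218, 215 and 208 in KO. In each of these the Het libraries were the lowest or shared the lowest range, though KO versus Het was not called. For Syt7 it was 0.13 (adjusted p = 0.087), and passed with pan-neuronal scaling (0.17, adjusted p = 0.026) and after removal of GC and length trends (0.16, adjusted p = 0.027). Syt7 fell by 0.31 in Het and 0.18 in KO (adjusted p = 0.0046), the KO call being lost with pan-neuronal scaling (-0.10, adjusted p = 0.099) and after removal of GC and length trends (-0.08, adjusted p = 0.16). Syt11 was at 520, 525 and 521 CPM in WT, 457, 427 and 445 in Het and 490, 499 and 474 in KO, and fell in Het by 0.24 (SE 0.05, adjusted p = 0.001), with -0.10 for KO versus WT (95% interval -0.20 to 0.01). Its KO versus Het value of 0.14 (adjusted p = 0.070) passed with pan-neuronal scaling (0.18, adjusted p = 0.027), without GC and length trends (0.17, adjusted p = 0.022) and in DESeq2 (0.13, adjusted p = 0.033). The rare Syt2 was at 4.92, 3.52 and 4.05 CPM in WT, 3.48, 3.38 and 3.49 in Het and 3.28, 3.01 and 2.79 in KO, and fell by 0.46 in KO (SE 0.16, adjusted p = 0.026). That call was lost without WT replicate 1 (-0.33, adjusted p = 0.13), KO replicate 2 (-0.45, adjusted p = 0.065) or KO replicate 3 (-0.40, adjusted p = 0.082), with pan-neuronal scaling (-0.37, adjusted p = 0.073) and with no filter on low counts (-0.45, adjusted p = 0.052).

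The Doc2 proteins, C2-domain sensors linked to spontaneous and asynchronous release, were both lower in Het than in WT, and in KO Doc2a was called and Doc2b was not. Doc2a was at 24.1, 29.1 and 26.6 CPM in WT, 12.7, 14.5 and 13.1 in Het and 13.0, 11.9 and 11.3 in KO, and fell by 1.14 in KO (SE 0.09, adjusted p = 3.9e-08) and 0.98 in Het (SE 0.09, adjusted p = 3.5e-07), with -0.15 for KO versus Het (95% interval -0.36 to 0.05). Doc2b was at 69.5, 56.2 and 63.3 CPM in WT, 41.9, 56.0 and 51.5 in Het and 60.2, 64.5 and 67.9 in KO, so that KO lay in the WT range and Het below it. Doc2b fell in Het by 0.34 (SE 0.10, adjusted p = 0.016), lost without WT replicate 1 (-0.26, adjusted p = 0.066), and was 0.03 in KO versus WT (95% interval -0.19 to 0.25). KO versus Het was 0.37 (SE 0.10, adjusted p = 0.026), lost when any of Het replicates 1 and 3 and KO replicates 2 and 3 was left out (adjusted p = 0.055 to 0.092). The difference between Doc2a and Doc2b was not tested.

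**Figure D3:**
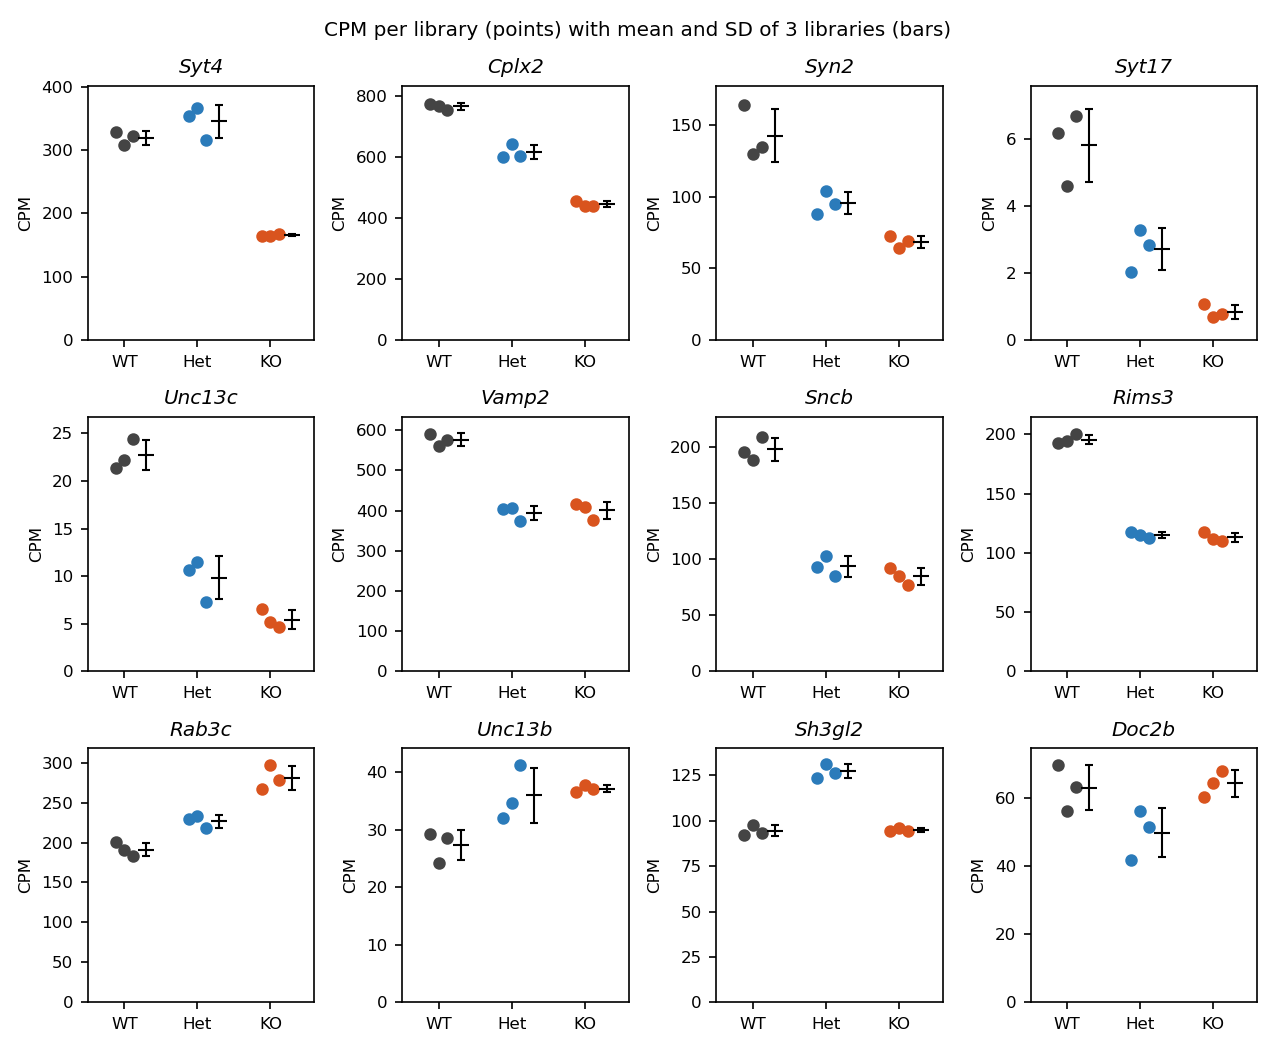
Points are CPM in each library for 12 members, on axes from 0, with the mean and SD of the 3 libraries of a genotype beside them. Cplx2, Syn2, Syt17 and Unc13c step down from WT to Het to KO, Vamp2, Sncb and Rims3 are low in Het and KO alike, Syt4 is low in KO alone, and Sh3gl2 is high in Het alone.

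Priming factors of the Munc13 family make docked vesicles ready to fuse, and of their 3 genes Unc13c fell, Unc13b rose and Unc13a did not pass the test in any comparison. Unc13c (ENSMUSG00000062151, chr9:73479422-73968966, minus strand), best known from cerebellar granule cells, was at 21.4, 22.2 and 24.4 CPM in WT, 10.7, 11.5 and 7.30 in Het and 6.59, 5.14 and 4.62 in KO. Without overlap between groups, it was 4.16-fold lower in KO, a log2 fold change of -2.06 (SE 0.16, adjusted p = 2.2e-07). Het versus WT was -1.21 (SE 0.16, adjusted p = 3.4e-05) and KO versus Het -0.85 (SE 0.17, adjusted p = 0.0036). Unc13b was at 29.2, 24.3 and 28.6 CPM in WT, 32.0, 34.7 and 41.3 in Het and 36.6, 37.8 and 37.1 in KO, and rose by 0.40 in Het (SE 0.09, adjusted p = 0.0023) and 0.44 in KO (SE 0.09, adjusted p = 0.00075). Every Het and KO library lay above the highest WT library for Unc13b. Unc13a, the main forebrain form, was at 242, 226 and 220 CPM in WT, 203, 227 and 266 in Het and 205, 221 and 210 in KO, ranges that overlap, with -0.11 for KO versus WT (95% interval -0.28 to 0.06). Of the CAPS proteins, which prime dense-core and synaptic vesicles, Cadps had 0.05 in KO versus WT (95% interval -0.09 to 0.18) and Cadps2 -0.18 (95% interval -0.36 to 0.01). Cadps2 was at 30.8, 28.4 and 28.1 CPM in WT, 20.0, 24.7 and 24.4 in Het and 25.0, 27.1 and 25.2 in KO, and fell in Het by 0.33 (SE 0.09, adjusted p = 0.0046).

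The active zone scaffold places vesicles beside calcium channels. Among its RIM proteins, Rims3 was at 193, 194 and 200 CPM in WT, 117, 115 and 113 in Het and 118, 111 and 110 in KO. Het and KO formed a single low range, and Rims3 fell by 0.77 in Het and 0.79 in KO (SE 0.05 for both, adjusted p = 3e-09 and 1.1e-09). Rims1, the long RIM form that binds Rab3 and Munc13, was at 88.3, 76.4 and 80.8 CPM in WT, 55.0, 60.2 and 59.0 in Het and 57.5, 59.8 and 56.4 in KO, and fell by 0.49 in Het and 0.50 in KO (SE 0.06 for both). Rims2, its close relative, was at 32.3, 28.1 and 26.7 CPM in WT, 30.5, 34.5 and 32.5 in Het and 34.9, 39.5 and 37.0 in KO, where the KO libraries were highest. Rims2 rose in KO by 0.35 (SE 0.08, adjusted p = 0.0018). Het versus WT was 0.16 for Rims2 (95% interval -0.01 to 0.34), and passed without WT replicate 1 (0.25, adjusted p = 0.033).

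Bassoon (Bsn) and piccolo (Pclo) are the very large scaffold proteins of the active zone. Bsn was at 157, 138 and 139 CPM in WT, 123, 123 and 143 in Het and 107, 121 and 108 in KO, and fell in KO by 0.37 (SE 0.07, adjusted p = 0.0004). Het replicate 3 lay inside the WT range, and Het versus WT was -0.16 (adjusted p = 0.081), or -0.22 (adjusted p = 0.015) without that library. KO versus Het was -0.21 for Bsn (adjusted p = 0.0497), a call that 9 of 18 alternatives lost, among them the fits that left out WT replicates 2 and 3, Het replicate 3, and KO replicates 1 and 3 in turn (-0.21 to -0.14, adjusted p = 0.050 to 0.19). Pclo was at 101, 82.0 and 86.5 CPM in WT, 71.7, 82.7 and 86.6 in Het and 63.4, 70.9 and 70.0 in KO, and fell in KO by 0.40 (SE 0.08, adjusted p = 0.0012). For Pclo, Het versus WT was -0.16 (adjusted p = 0.14), or -0.32 (adjusted p = 0.00015) after removal of GC and length trends.

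Liprins and ELKS proteins link the scaffold together. Ppfia3 was at 179, 189 and 183 CPM in WT, 131, 133 and 140 in Het and 144, 135 and 142 in KO, and fell by 0.45 in Het and 0.39 in KO (SE 0.05 for both). Ppfia2 was at 125, 114 and 113 CPM in WT, 125, 133 and 124 in Het and 126, 129 and 131 in KO, and rose in KO by 0.13 (adjusted p = 0.0498), a call that 11 of 18 alternatives lost (0.06 to 0.14, adjusted p = 0.053 to 0.31), the fits without WT replicate 2 or 3 or any 1 KO library among them. The ELKS gene Erc1 was at 228, 225 and 220 CPM in WT, 196, 211 and 204 in Het and 209, 217 and 201 in KO, and fell in Het by 0.14 (adjusted p = 0.039), which 15 of 18 alternatives lost, with each of the 9 libraries left out among them (adjusted p = 0.050 to 0.17 over the 15). Its paralog Erc2 ran from 176 to 199 CPM over the 9 libraries, with 0.03 for KO versus WT (95% interval -0.09 to 0.15).

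Rab3 proteins are the small GTPases of the vesicle surface. Rab3c was at 200, 190 and 183 CPM in WT, 229, 234 and 218 in Het and 267, 297 and 278 in KO. It was the member that rose in all 3 comparisons, by 0.55 in KO versus WT (SE 0.06, adjusted p = 4.7e-07), 0.25 in Het versus WT (SE 0.06, adjusted p = 0.002) and 0.31 in KO versus Het (SE 0.06, adjusted p = 0.0012). Rab3a, the most abundant brain form, was at 328, 325 and 357 CPM in WT, 300, 328 and 291 in Het and 327, 318 and 285 in KO, ranges that overlap, with -0.12 for KO versus WT (95% interval -0.25 to 0.02). Rabphilin (Rph3a), an effector of Rab3, was at 185, 188 and 194 CPM in WT, 110, 138 and 131 in Het and 140, 134 and 134 in KO, and fell by 0.58 in Het and 0.47 in KO (SE 0.07 for both).

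After fusion, Dnm1 encodes the dynamin that pinches off the retrieved membrane. Dnm1 was at 285, 241 and 261 CPM in WT, 149, 180 and 164 in Het and 178, 166 and 159 in KO, and fell by 0.68 in Het (SE 0.07, adjusted p = 3.4e-06) and 0.64 in KO (SE 0.07, adjusted p = 3.3e-06). Endophilin A1 (Sh3gl2), which curves the membrane and recruits synaptojanin, was at 92.3, 97.9 and 93.4 CPM in WT, 124, 131 and 127 in Het and 94.5, 95.9 and 94.4 in KO. Het alone was high, by 0.43 over WT (SE 0.05, adjusted p = 2.3e-06), and Sh3gl2 fell by 0.42 from Het to KO (SE 0.05, adjusted p = 1.2e-05), with 0.01 for KO versus WT (95% interval -0.10 to 0.11). Amphiphysin (Amph), which brings dynamin to the vesicle neck, was at 157, 161 and 164 CPM in WT, 132, 150 and 141 in Het and 156, 162 and 153 in KO, and fell in Het by 0.19 (SE 0.05, adjusted p = 0.0085), lost without Het replicate 1 (-0.13, adjusted p = 0.058). KO versus Het was 0.16 for Amph (adjusted p = 0.055), and passed with pan-neuronal scaling (0.20, adjusted p = 0.011), without GC and length trends (0.17, adjusted p = 0.026) and when Het replicate 2 was left out (0.20, adjusted p = 0.039). KO versus WT was -0.03 for Amph (95% interval -0.15 to 0.08) and -0.06 for Bin1, amphiphysin II (95% interval -0.19 to 0.06).

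Set side by side over the 3 comparisons, 6 members were lower in Het and KO than in WT and lower in KO than in Het (Syn2, Stx1a, Cplx1, Cplx2, Syt17 and Unc13c). A further 18 were lower in both genotypes without a call between them. Syt4 and Bsn were called lower in KO against both other genotypes and not in Het, and Syt2 and Pclo in KO versus WT alone. Calls in Het and not in KO versus WT were made for 7 members, lower for Sv2b, Doc2b, Syt11, Cadps2, Erc1 and Amph and higher for Sh3gl2. Of these 7, the KO versus Het difference itself passed the test for Sv2b, Doc2b and Sh3gl2. The members without a call in any comparison were Unc13a, Cadps, Erc2, Rab3a and Bin1.

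Compared per gene length in the deposited FPKM, Vamp2 was the most abundant member in WT at 523 ± 20.7 FPKM (SD, n = 3), followed by Rab3a at 286 ± 14.6, Syp at 248 ± 10.1 and Sncb at 230 ± 12.6. At the bottom were Syt17 at 3.53 ± 0.680, Unc13c at 2.88 ± 0.184, Vamp1 at 2.42 ± 0.386 and Syt2 at 1.47 ± 0.269 FPKM. In KO, Syp was at 177 ± 7.29 and Sncb at 101 ± 7.94 FPKM, so the pair lay further apart than in WT. Large falls were found at opposite ends of the scale, Sncb among the 4 highest levels and Syt17 and Unc13c among the 4 lowest.

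**Figure D4:**
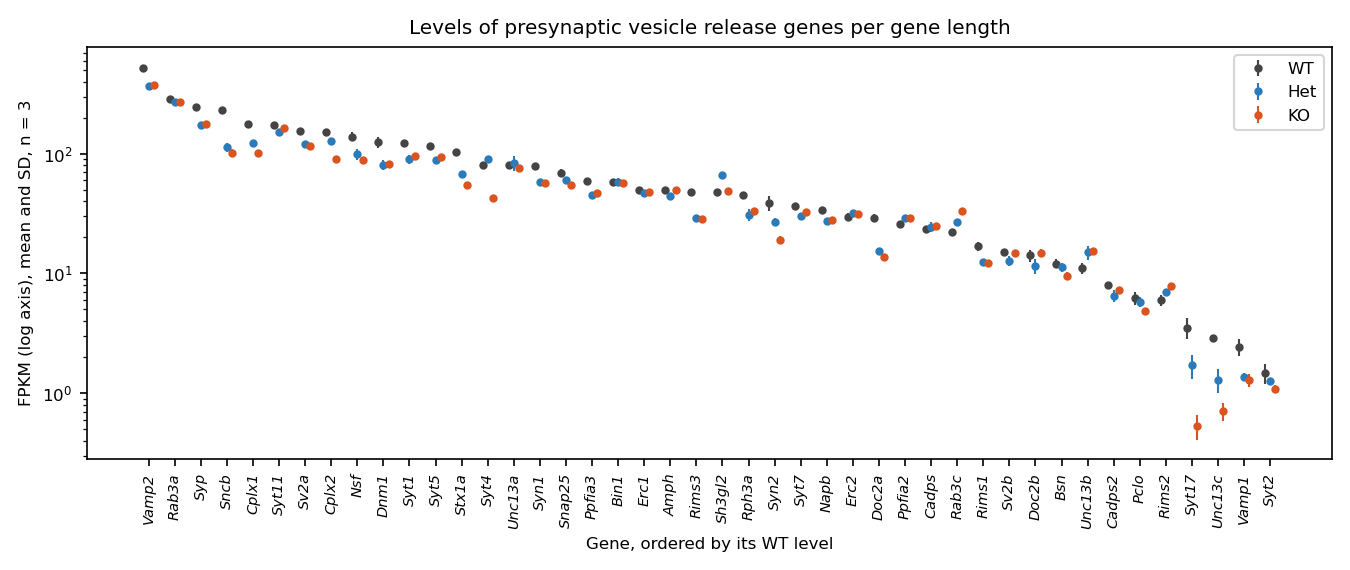
Points are mean deposited FPKM per genotype, with SD over 3 libraries, on a log axis, and genes run from the highest to the lowest WT level. Levels span from 523 FPKM for Vamp2 to 1.47 FPKM for Syt2 in WT, and Rab3c and Sh3gl2 are examples with points above WT.

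Summed over the 44 genes, member counts were 0.859%, 0.804% and 0.827% of all counts in WT, 0.670%, 0.713% and 0.693% in Het and 0.655%, 0.656% and 0.649% in KO. Het and KO libraries were all below WT, and Het above KO. The 23 genes used as a pan-neuronal list (genes that neurons of most kinds express, cytoskeletal and RNA-binding genes among them) summed to 2.76% to 2.78% in WT, 2.71% to 2.82% in Het and 2.63% to 2.71% in KO. These shares overlapped between WT and Het, and every KO library was below every WT library. Of the 23 genes in the list, 8 fell and 5 rose in KO versus WT, beside 26.3% and 26.5% of all genes. In Het versus WT 6 fell and 4 rose, beside 23.4% and 22.5% of all genes. When the libraries were scaled to this list in place of all genes, the median log2 fold change of all genes became 0.10 for KO versus WT and 0.06 for Het versus WT. Of the members, 26 fell and 4 rose in KO versus WT (median -0.31; 19.9% of all genes fell and 33.2% rose), and 29 fell and 5 rose in Het versus WT (median -0.29; 19.2% and 25.8% of all genes). In KO versus Het the split of 9 lower and 3 higher became 8 lower and 6 higher (5.64% and 10.3% of all genes).

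**Figure D5:**
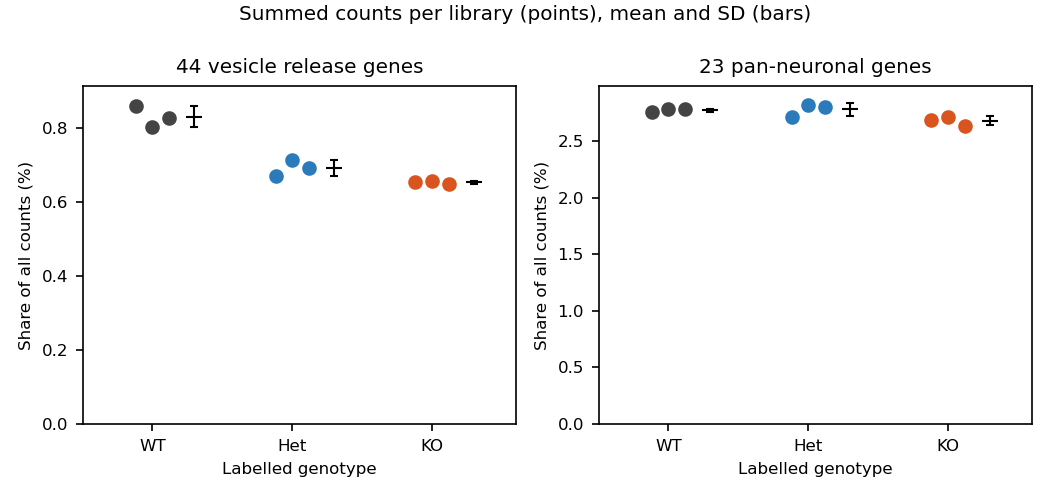
Points are the share of each library's counts in the 44 vesicle release genes (left) and in 23 pan-neuronal genes (right), on axes from 0, with the mean and SD of 3 libraries. The left panel steps from 0.804% to 0.859% in WT down to 0.649% to 0.656% in KO, and the right panel stays between 2.63% and 2.82%.

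Markers of other cells moved between the same groups. Of all genes tested, 26.3% fell and 26.5% rose in KO versus WT, and 23.4% fell and 22.5% rose in Het versus WT. All 16 striatal neuron genes fell in Het and 15 in KO, their summed level running from 615 to 650 CPM in WT, 179 to 212 in Het and 195 to 209 in KO. Of the 15 interneuron genes, 10 fell and 1 rose in KO, and 9 fell and 1 rose in Het. Their summed level ran from 985 to 1049 CPM in WT, 789 to 868 in Het and 717 to 802 in KO. Of 12 astrocyte genes 11 fell in KO and 11 in Het (1457 to 1520 CPM in WT, 778 to 843 in Het, 682 to 782 in KO), and 11 of 11 tested oligodendrocyte lineage genes and 7 of 10 microglia genes fell in KO. In Het, 10 of the 11 oligodendrocyte lineage genes and 9 of the 10 microglia genes fell. Of 18 cell cycle genes 17 rose in KO and 16 in Het (343 to 350 CPM in WT, 478 to 495 in Het, 589 to 615 in KO), and of 17 cortical progenitor and excitatory neuron genes 10 rose and 3 fell in each. Of 10 endothelial and pericyte genes 5 rose and 1 fell in KO, and 8 rose in Het. The part of these shifts in the vesicle gene values was not tested.

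A list of 79 other presynaptic genes (further synaptotagmins, SNAREs, Rab3 regulators, transporters and endocytic proteins) had 78 matched and 76 tested. Of these, 34 fell (44.7%) and 9 rose (11.8%) in KO versus WT, beside 26.3% and 26.5% of all genes. In Het versus WT 34 fell (44.7%) and 6 rose (7.89%), beside 23.4% and 22.5%, and in KO versus Het 15 fell (19.7%) and 5 rose (6.58%), beside 8.44% and 8.30%. Their median log2 fold changes were -0.07, -0.18 and -0.02. With pan-neuronal scaling the KO versus WT split was 30 lower and 15 higher, where 19.9% of all genes fell and 33.2% rose, and the KO versus Het split 9 and 7, where 5.64% fell and 10.3% rose. Among those with the largest falls, the vesicle protein Synpr was at 52.9, 52.0 and 55.3 CPM in WT, 16.4, 18.4 and 13.4 in Het and 11.8, 11.2 and 11.4 in KO, and fell by 2.22 in KO and 1.73 in Het (SE 0.10 and 0.09). Sv2c, the SV2 form known from basal ganglia, was at 14.2, 12.2 and 12.1 CPM in WT, 5.37, 8.36 and 4.12 in Het and 2.41, 2.28 and 2.92 in KO, and fell by 2.33 in KO, 1.11 in Het and, in KO versus Het, 1.23. Baiap3, a Munc13-related gene, was at 11.6, 6.24 and 11.6 CPM in WT, 1.43, 6.77 and 1.38 in Het and 1.64, 0.724 and 0.930 in KO, and fell in KO by 3.15 (SE 0.76, adjusted p = 0.013), lost without KO replicate 2 (-2.93, adjusted p = 0.051).

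The complexin Cplx3, unlike Cplx1 and Cplx2, was lowest in Het, at 2.75, 4.28 and 4.05 CPM in WT, 1.11, 1.08 and 1.76 in Het and 5.44, 4.61 and 7.90 in KO. It fell by 1.48 in Het (SE 0.26, adjusted p = 0.0003) and rose by 2.18 in KO versus Het (SE 0.25). Its rise of 0.70 in KO versus WT (SE 0.23, adjusted p = 0.018) was lost without WT replicate 1 (0.52, adjusted p = 0.086) or KO replicate 3 (0.44, adjusted p = 0.12). Syt6 fell by 1.30 from Het to KO and was at 62.0, 72.6 and 64.3 CPM in WT, 35.1, 40.8 and 38.0 in Het and 15.8, 13.6 and 16.9 in KO, 3 separate ranges. Otof, the otoferlin gene, fell by 1.49 from Het to KO. Smaller rises by the test were those of Vamp3 (0.52 in KO versus WT), Sncaip (0.46 in KO and 0.49 in Het), Ppfia1 and Rab3gap1 (0.49 and 0.37 in Het versus WT), and Syn3 and Vamp4 (0.37 and 0.27 in KO versus Het). The Vamp4 call was lost without Het replicate 3 (0.21, adjusted p = 0.055) or KO replicate 3 (0.22, adjusted p = 0.059).

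Reads could be shared with other genes at some loci. Exons of an opposite-strand gene overlapped 16 of the 44 members, among them Syn1, Syn2, Syp, Syt4 and Doc2a, and the sources used here do not say if counting used strand. More than 10% of the 31-base words of 5 members also occurred in other genes' transcripts, 32.6% for Doc2a, 23.9% for Ppfia2, 17.1% for Syp, 12.3% for Syt4 and 11.8% for Erc1, and their values are less certain for it.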

How the data were processed

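RNA-seq of 9 dorsal telencephalon libraries was deposited as raw read counts per gene and as FPKM. Per the submitters' processing notes, the build was mm10 and the tools included HTSeq 0.6.1, DESeq 1.10.1, TopHat2 2.0.9 and Bowtie2 2.0.6, their roles not being listed. The authors' deposited FPKM were used only to compare levels between genes, since they are the counts per gene length and library total.

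From the deposited counts, genes passing filterByExpr (minimum count 10, minimum total 15) were kept, 15271 of 41128. edgeR 4.0.16 (R 4.3.3) fitted all 9 libraries with TMM factors, a robust quasi-likelihood model of the 3 genotypes that left 6 residual degrees of freedom, with p-values adjusted by Benjamini and Hochberg's method over all genes tested, and a call at an adjusted p under 0.05. Adjusted p-values are from this test, except that those given beside a named alternative are from the fit of that alternative. SE is the size of the log2 fold change divided by the square root of F, and intervals are at 95%. Symbols and positions came from GENCODE M21 and promoters from RefSeq. The procedure was tested on simulated KO and WT counts of 15271 genes. It recovered 76.1% of genes changed 1.5-fold, 94.0% of those changed 2-fold and 100% of those changed 4-fold, with 13 false calls. Far fewer genes were changed there than were called in the data, and all genes had the same fixed spread. Same-numbered libraries were checked for pairing.

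The members and lists were chosen with earlier results of these data known. All 44 members are described, and of the other presynaptic genes those taken, in each comparison and direction, were up to 3 with the largest fold among called genes whose groups did not overlap and whose log2 CPM averaged 1 or more. Alternatives were other scalings, filters and libraries, DESeq2 1.42.0 and a replicate block. Removal of GC and length trends (mgcv 1.9.3) was chosen after seeing the data.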

Additional observations from a re-analysis of the deposited data

How the results depend on the processing

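Over 18 alternatives, none of the 77 member calls reversed, 68 were called under every one and 9 were lost under at least 1, as given beside Sv2b, Syt2, Syt7, Doc2b (in Het and in KO versus Het), Bsn, Ppfia2, Erc1 and Amph. The count of members higher in Het versus WT was 5 with upper-quartile factors and 5 with pan-neuronal scaling, and 3 to 5 with a library left out. Members higher in KO versus Het numbered 6 with pan-neuronal scaling, 6 after removal of GC and length trends, and 1 to 4 with a library left out (1 without Het replicate 1 or 3 or KO replicate 2 or 3). Other presynaptic genes higher in KO versus WT numbered 15 with pan-neuronal scaling. Those lower in KO versus Het numbered 9 with pan-neuronal scaling and 8 to 18 with a library left out, and those higher 3 with only the genotypes compared, 3 with the replicate block and 2 to 4 with a library left out. The cause was not tested. Shares of all genes called were counted only for the main fit and for pan-neuronal scaling. Counts under the other alternatives are therefore not shown to be particular to these genes. Cadps2 in KO versus WT passed at -0.17 (adjusted p = 0.049) both with only the genotypes compared and without Het replicate 1.

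Over the 18 alternatives, 23 uncalled member values near 0 changed sign, with sizes up to 0.0846 after the change. Only those of values given above are named here. In KO versus WT these were, with pan-neuronal scaling, Sv2b (0.033), Amph (0.055) and Bin1 (0.024), and, without GC and length trends, Unc13a (0.0012) and Sh3gl2 (-0.075). Sh3gl2 was -0.0029 with relative log expression factors, -0.0029 with DESeq2 and -0.0085 with a 1 CPM filter. With a library left out, KO versus WT ran from -0.016 to 0.032 for Sh3gl2, -0.048 to 0.10 for Doc2b and -0.0071 to 0.072 for Erc2, and KO versus Het from -0.015 to 0.059 for Vamp2.

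Correlations of same-numbered libraries ran from -0.106 to 0.0844, and those of differently numbered libraries of different genotypes from -0.137 to 0.0982. These ranges gave no sign of pairing by replicate number, but with 3 libraries per genotype they cannot exclude it. With the replicate block 28 members were lower in KO versus WT, 29 in Het versus WT and 8 in KO versus Het, the share of all genes not being counted. The calls of Bsn in KO versus Het (adjusted p = 0.091), Erc1 in Het (adjusted p = 0.061) and Ppfia2 in KO (adjusted p = 0.077) were lost with it. The widest KO versus WT intervals were those of the rarest members, Syt17, Unc13c, Syt2 and Vamp1.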
